A study of Mus musculus with 16 samples.

Results

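The keratin-associated proteins of the hair shaft were followed in biopsies of mouse melanomas through all array probes whose gene name starts with Krtap. There were 64 such probes, carrying 52 gene names, among 55681 probes that are not controls. All 64 lay above background in the tumour channel on at least 4 arrays, as did 30501 probes of the whole array, and all 64 were therefore tested. Each of 16 tumours was hybridised in Cy5 against a universal mouse reference RNA in Cy3, and the measurement is the log2 ratio of tumour over reference, so that a value of 0 means equal signal. The groups, of 4 tumours each, were untreated melanomas, melanomas treated for 4 days, melanomas treated for 60 days, and melanomas labelled resistant after 120 days of treatment. The series title speaks of BRAF inhibitors, but neither the drug, its dose, nor the strain, genotype, age and driver of the tumours is given in the sources used here. Whether the 4 tumours of a group came from separate animals is not stated either, so the spread between them may be partly technical.

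Hair is built of hair keratin filaments embedded in a matrix of keratin-associated proteins, which cross-link the filaments through disulfide bonds. The genes are small, lie in clusters, and are switched on late in the differentiation of the cortex and cuticle of the growing hair follicle. The classes usually told apart are the high sulfur and ultra-high sulfur proteins, rich in cysteine, and the high glycine-tyrosine proteins. By family number the 64 probes comprised 21 ultra-high sulfur, 18 high sulfur and 19 high glycine-tyrosine probes, and 6 probes of families 16, 28 and 31 were left without a class. They lay on chromosome 11 (21 probes), chromosome 16 (28 probes), chromosome 7 (9 probes), chromosome 10 (3 probes) and chromosome 1 (3 probes). The array's Krtap16-1 probe carries an accession that RefSeq now names Krtap19-2, and that name is used here.

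Some of the probes lie in repeats rich in the residues that the class names describe. A few of these are printed here as examples, and they do not stand for a whole class. In the first 3, from the high glycine-tyrosine gene Krtap20-2, capitals mark the letters GGCTAT (GGC being a codon for glycine and TAT for tyrosine). In the next 4, from ultra-high sulfur genes, capitals mark pairs of the cysteine codons TGC and TGT, that is TGCTGC and TGCTGT as well as TGTTGC and also TGTTGT.
Krtap20-2 probe A_55_P2092475: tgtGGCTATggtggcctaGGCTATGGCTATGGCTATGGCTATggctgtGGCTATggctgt
Krtap20-2 probe A_55_P2027213: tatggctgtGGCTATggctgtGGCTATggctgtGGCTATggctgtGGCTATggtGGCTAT
Krtap20-2 probe A_55_P2070940: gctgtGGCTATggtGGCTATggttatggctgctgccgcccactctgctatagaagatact
Krtap5-5 probe A_55_P2098150: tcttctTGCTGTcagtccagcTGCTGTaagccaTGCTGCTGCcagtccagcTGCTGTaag
Krtap5-5 probe A_55_P2060011: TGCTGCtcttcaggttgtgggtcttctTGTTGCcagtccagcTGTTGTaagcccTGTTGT
Krtap5-2 probe A_55_P1985298: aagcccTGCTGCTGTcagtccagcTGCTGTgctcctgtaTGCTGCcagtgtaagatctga
Krtap4-8 probe A_55_P2047778: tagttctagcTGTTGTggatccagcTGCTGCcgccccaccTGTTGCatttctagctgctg
In mm9, the build of the array's annotation, the Krtap20-2 probes lie at chr16:89206195-89206254, chr16:89206222-89206281 and chr16:89206262-89206321 on the plus strand. The Krtap5-5 probes lie at chr7:149415298-149415357 and chr7:149414700-149414752, the Krtap5-2 probe at chr7:149360743-149360802 and the Krtap4-8 probe at chr11:99641467-99641526, all on the minus strand. On the printed strand GGCTAT occurred in 6 of 19 high glycine-tyrosine probes (31.6%), 0 of 21 ultra-high sulfur probes and 0.991% of all probes. The cysteine pairs occurred in 9 of 21 ultra-high sulfur probes (42.9%), 2 of 18 high sulfur probes (11.1%), 3 of 19 high glycine-tyrosine probes (15.8%) and 8.73% of all probes. Over all 64 Krtap probes the cysteine pairs occurred in 25% and GGCTAT in 9.38%, so the printed probes are repeat-rich examples. The reading frame was not checked.

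Repeats also mean that a probe can bind transcripts of a neighbour. Among pairs of probes for different Krtap genes, 3 shared an identical run of at least 20 bases, the longest of 25 bases between Krtap16-3 and Krtap19-2, and these pairs involved 5 probes. The other pairs joined Krtap5-2 with Krtap5-5. Whether they measured each other's RNA was not tested, and values of Krtap5-2, Krtap5-5, Krtap16-3 and Krtap19-2 are uncertain as to the gene. Krtap probes were compared only with each other and only for identical runs, not with whole transcripts. The other members are therefore not shown to be specific to their gene.

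Krtap RNA was measured above background in every tumour, at levels that differed widely from tumour to tumour within a group. Of the 64 probes, the number above background in Cy5 was 61, 53, 63 and 51 in the untreated tumours, 63, 58, 62 and 64 at 4 days, 64, 63, 63 and 63 at 60 days, and 31, 57, 63 and 63 in the resistant tumours. Resistant tumour 1 had the fewest, followed by untreated tumours 4 and 2. No Krtap spot was saturated in Cy5. Over the whole array the share of probes above background lay between 49.07% and 54.25%, and it was 49.5% in resistant tumour 1, so the low count there was not shared by the array as a whole.

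**Figure D1:**
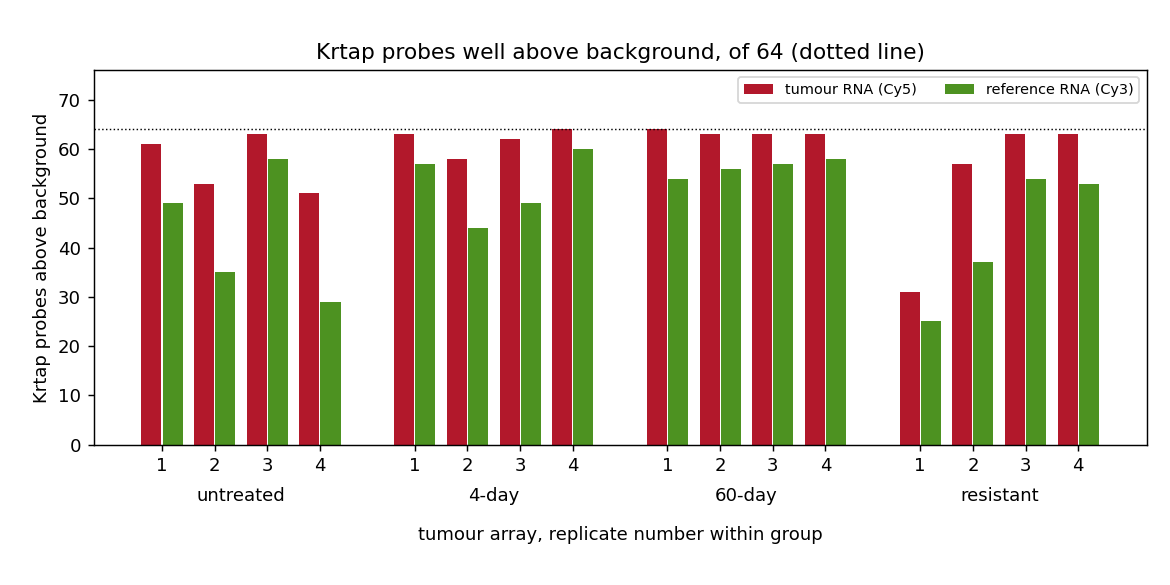
Number of the 64 Krtap probes above background in the tumour channel (Cy5, red) and in the common reference channel (Cy3, green) on each of the 16 arrays, by group and replicate number. Resistant tumour 1 has 31 in Cy5, and the 60-day tumours have 63 or 64.

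The mean log2 ratio over the 64 probes was 3.44, 1.13, 3.65 and 0.92 in the untreated tumours, 4.79, 2.93, 3.58 and 4.38 at 4 days, 3.90, 4.34, 3.85 and 4.01 at 60 days, and 0.49, 2.35, 3.21 and 3.45 in the resistant tumours. The 60-day tumours were the most alike, with a mean of 4.02 ± 0.22 (SD, n = 4), and each lay above every untreated tumour. The 4-day tumours averaged 3.92 ± 0.83, and the resistant tumours 2.37 ± 1.34, against 2.29 ± 1.46 in the untreated tumours (SD, n = 4 each). Untreated tumours formed a high and a low pair, and the resistant group held 1 tumour close to 0 and 3 higher ones. Fewer cells that make hair and less Krtap RNA per cell cannot be told apart in such biopsies.

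**Figure D2:**
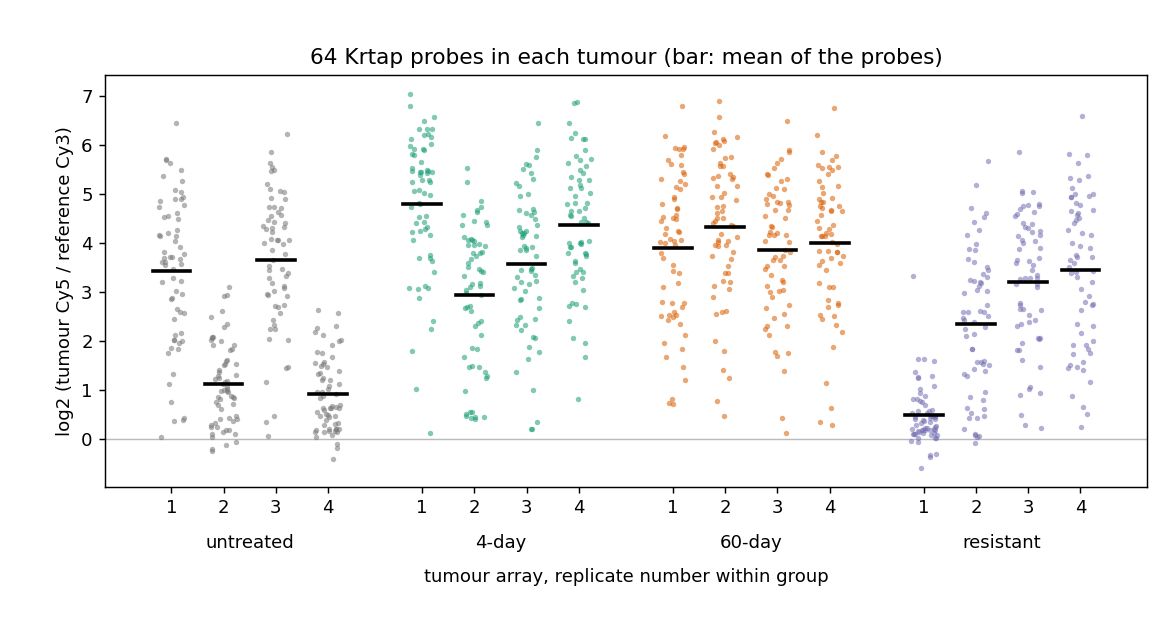
Log2 ratio of tumour Cy5 over reference Cy3 for each of the 64 Krtap probes (points) and their mean (bar) on each array. The 60-day means lie between 3.85 and 4.34 and those of resistant tumours between 0.49 and 3.45, against 0.92 to 3.65 in untreated tumours.

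The 2 slides held 2 tumours of each group, and the high and low untreated tumours were on both. On slide 1 the untreated tumours had means of 3.65 and 0.92, and on slide 2 of 3.44 and 1.13. Of the untreated tumours, 3 carry the title code RG10, whose meaning is not given, and their means were 3.44, 1.13 and 3.65. The RG9 tumour had 0.92. The resistant tumours on slide 2 (0.49 and 2.35), which share a code, both lay below those on slide 1 (3.21 and 3.45), which share another. In that group slide and code cannot be told apart. Array position on a slide followed the group and cannot be told apart from it.

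The reference channel moved with the tumour channel. Both signals were rebuilt from the ratio and mean intensity after loess and Aquantile, which evens out mean intensities between arrays. They are not raw brightness. The mean log2 Cy3 signal of the Krtap probes, from the same reference RNA throughout, ranged from 6.64 to 9.31. The mean log2 Cy5 ranged from 7.24 to 13.7. Over the 16 arrays, which share 1 reference RNA, Pearson's r between them was 0.889 and Spearman's rho 0.95, with r of 0.888 without the 2 arrays farthest from the median Cy5, 0.947 on slide 1 and 0.891 on slide 2. Cy3 was brightest where Cy5 was brightest, so the ratio spans less than the Cy5 signal alone. The part of this in the results, and the part of the normalization in this likeness, were not tested. In Cy5 alone, quantile-normalized, the median Krtap difference from untreated tumours was 2.52 at 4 days, 2.26 at 60 days and -0.06 in resistant tumours, with 0 of 64 past limma's adjusted threshold in each, against 2.3%, 1.33% and 0.0557% of all probes. At an unadjusted p under 0.05 there were 40, 13 and 1, against 18.4%, 19.3% and 11.7% of all probes.

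In the ratio none of the 64 Krtap probes differed between any 2 groups by limma's test after Benjamini-Hochberg adjustment over all 30501 probes at 0.05. Between 4-day and untreated tumours 0 of 64 passed, against 1.31% of all probes, and the lowest adjusted p was 0.123. Between 60-day and untreated tumours 0 of 64 passed, against 1.05% of all probes, with a lowest adjusted p of 0.14. Between resistant and untreated tumours 0 of 64 passed, against 0.0131% of all probes (lowest adjusted p 0.538). Between resistant and 60-day tumours 0 of 64 passed, against 0% of all probes (0.888), between resistant and 4-day tumours 0 of 64, against 0.0131% (0.549), and between 60-day and 4-day tumours 0 of 64, against 0% (1). Before adjustment, the numbers with p under 0.05 were 38, 49, 0, 38, 30 and 0 in the same order, that is 59.4%, 76.6%, 0%, 59.4%, 46.9% and 0%, against 15.9%, 17.9%, 9.37%, 5.56%, 7.76% and 1.8% of all probes. Single tumours moved these counts. Between 4-day and untreated tumours 6 or 8 were at p under 0.05 without untreated tumour 4 or 2, and 8 or 9 without 4-day tumour 1 or 4, against 10.9% to 11.6% of all probes. Between 60-day and untreated tumours it was 2 or 5 without untreated tumour 4 or 2, against 12.7% and 13.1% of all probes. Without 60-day tumour 1, 2, 3 or 4 it was 32, 15, 32 or 24, against 16.1%, 12.7%, 14.6% and 14.8% of all probes.

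All 64 differences were positive after 4 days and after 60 days. The median difference from untreated tumours was 1.64 on the log2 scale at 4 days (3.12-fold) and 1.71 at 60 days (3.28-fold), where the median over all probes was -0.01 and -0.00244. Resistant tumours had a median difference of 0.09 from untreated tumours with 44 of 64 positive, of -1.73 from 60-day tumours with 1 positive, and of -1.57 from 4-day tumours with 1 positive. Without resistant tumour 1 the medians from 60-day and 4-day tumours were -0.96 and -0.84, and the numbers at p under 0.05 were 6 and 9, against 1.91% and 4.22% of all probes. Other single tumours moved those numbers too. For the 60-day comparison they lay between 10 (without 60-day tumour 2, against 3.94% of all probes) and 57 (without resistant tumour 4, against 8.21%). For the 4-day comparison they lay between 4 (without 4-day tumour 1, against 5.47%) and 52 (without resistant tumour 4, against 8.93%). The direction of resistant against untreated tumours rested on single tumours. The number positive was 4 without untreated tumour 4, 7 without untreated tumour 2 or resistant tumour 4, 16 without resistant tumour 3, 57 without untreated tumour 1 or resistant tumour 1, and 60 without untreated tumour 3. In the deposited value table, where 55 Krtap probes could be tested in each, the medians were 1.04 at 4 days, 0.98 at 60 days and -0.74 between resistant and 60-day tumours. These comparisons share groups, and those with untreated tumours share the same 4 untreated tumours, so their agreement is no separate evidence. The median standard error of a Krtap difference was 0.77, against 0.18 over all probes, which shows how far these tumours spread. The number of arrays limits the precision.

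Whether groups stood apart without a model differed between comparisons. In 32 of 64 Krtap probes every 60-day tumour lay above every untreated tumour, against 6.98% of all probes. The margins were often narrow. The lowest 60-day and highest untreated values were 2.67 and 2.666 for Krtap28-13, and 5.309 and 4.775 for Krtap20-2 probe A_55_P2070940. Krtap13, not above background in any untreated tumour, is among the 32. In 39 of 64 every resistant tumour lay below every 60-day tumour, against 2.35% of all probes. The probes moved together, so such counts are not counts of independent events. In 3 of 64 every 4-day tumour lay above every untreated tumour, against 2.67% of all probes, and in 6 of 64 every resistant tumour lay below every 4-day tumour, against 1.29%. Resistant and untreated tumours stood apart in 0 of 64, against 4.29% of all probes, and 60-day and 4-day tumours in 0 of 64, against 1.67%. Within slides the median difference between 60-day and untreated tumours was 1.71 on slide 1 and 1.89 on slide 2, and between 4-day and untreated tumours 1.61 on both. Between resistant and untreated tumours it was 1.10 on slide 1 and -0.93 on slide 2, so that comparison turned its direction between slides. Between resistant and 60-day tumours it was -0.52 on slide 1 and -2.79 on slide 2.

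**Figure D3:**
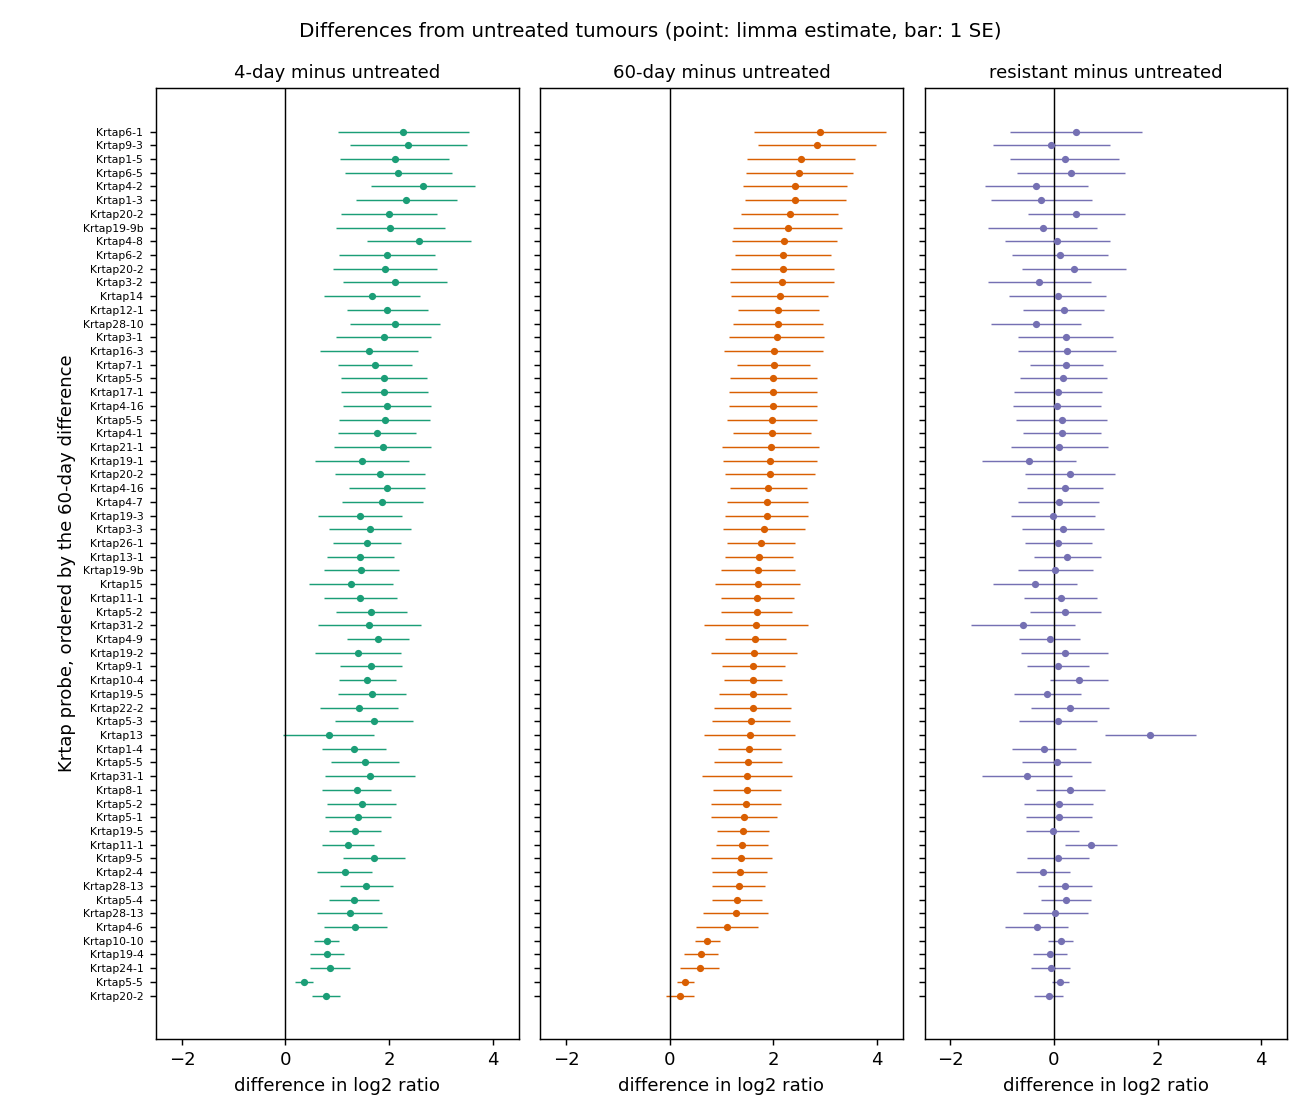
Difference in log2 ratio from untreated tumours for each of the 64 Krtap probes at 4 days, at 60 days and in resistant tumours, as limma estimates with 1 standard error, in 1 order throughout. All points are above 0 in the first 2 panels, with medians of 1.64 and 1.71, and scatter about 0.09 in the third.

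The calls depend on how much single tumours count. With array weights, which reduce the influence of arrays that deviate from their group over all probes, 59 of 64 Krtap probes passed between 4-day and untreated tumours, against 15% of all probes, and 57 of 64 between 60-day and untreated tumours, against 19.5%. The lowest weight, 0.399, was that of untreated tumour 3, a tumour high in Krtap, and the highest, 1.96, was that of 60-day tumour 4. Without resistant tumour 1, which enters only through the common spread, 1 of 64 passed between 60-day and untreated tumours, against 4.8% of all probes. With resistant tumour 1 and untreated tumour 3 both left out, an alternative chosen after the values were seen, 32 of 64 passed at 4 days, against 8.17%, 50 of 64 at 60 days, against 11.4%, and 1 of 64 in resistant tumours, against 4.31%. The median difference between resistant and untreated tumours was 0.94 with array weights, with 60 of 64 positive, and 1.27 with both tumours left out, with 62 positive. Leaving out untreated tumour 2 or 4, both low in Krtap, lowered the median difference to 1.42 or 1.30 at 60 days and to 1.26 or 1.23 at 4 days.

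Among the ultra-high sulfur members, cysteine-rich proteins of the cortex and cuticle, Krtap4-8 had a log2 ratio of 1.87, -0.24, 4.00 and -0.40 in untreated tumours, 4.53, 1.84, 3.86 and 5.30 at 4 days, 2.43, 3.97, 3.48 and 4.20 at 60 days, and -0.59, 0.53, 2.78 and 2.77 in resistant tumours. The groups overlap, with untreated tumour 3 above most treated ones. The 4-day difference from untreated was 2.58 ± 1.01 (SE, 5.97-fold, adjusted p = 0.235).

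Krtap4-2 had the largest 4-day difference of the family. It measured 3.77, 0.73, 4.93 and 0.66 in untreated tumours, 6.34, 3.52, 4.71 and 6.13 at 4 days, 4.49, 5.75, 4.52 and 5.03 at 60 days, and 0.18, 1.33, 3.70 and 3.52 in resistant tumours. Its difference at 4 days was 2.65 ± 1.00 (SE, adjusted p = 0.22), and -0.34 in resistant tumours. Krtap9-3, like the KAP4 proteins a cortex protein in human hair, measured 4.62, 1.36, 5.55 and 1.02 in untreated tumours, 6.57, 4.04, 5.31 and 6.12 at 4 days, 5.94, 6.27, 5.87 and 5.86 at 60 days, and -0.36, 3.05, 4.69 and 4.97 in resistant tumours. The 60-day values all lay above the untreated ones, the lowest at 5.86 against a highest untreated value of 5.55. The difference between the group means was 2.85 ± 1.14 (SE, 7.20-fold, limma's adjusted p = 0.209). In Cy5 after loess and Aquantile that difference was 3.29, with 0.44 in the reference channel.

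The high sulfur members gave both large and small differences. Krtap1-5, a cortex protein in human hair, measured 4.55, 0.85, 4.75 and 0.67 in untreated tumours, 5.93, 3.19, 4.62 and 5.50 at 4 days, 5.11, 5.58, 5.00 and 5.26 at 60 days, and 0.21, 2.51, 4.31 and 4.62 in resistant tumours. Every 60-day value was above every untreated one, and the difference was 2.53 ± 1.05 (SE, adjusted p = 0.225). Krtap10-10, of a family found in the cuticle of human hair, spread far less: 1.12, 0.85, 1.46 and 0.60 in untreated tumours, 2.41, 1.37, 1.37 and 2.07 at 4 days, 1.47, 1.80, 1.79 and 1.88 at 60 days, and 0.82, 1.29, 1.03 and 1.41 in resistant tumours. It had the lowest adjusted p of the family, 0.123 at 4 days (0.80 ± 0.24) and 0.14 at 60 days (0.73 ± 0.24).

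Krtap24-1, a dim member above background on 10 of 16 arrays, differed from untreated tumours by 0.58 at 60 days and -0.06 in resistant tumours. Krtap10-4 had 0.17, 2.59, 2.43 and 2.75 in resistant tumours, against 1.97, 0.83, 2.72 and 0.48 in untreated tumours (0.48 ± 0.55 SE, adjusted p = 0.853). The resistant and untreated values overlap there.

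Of the high glycine-tyrosine members, small proteins of the hair cortex, Krtap20-2, read by its probe A_55_P2027213, measured 5.49, 2.49, 5.49 and 2.27 in untreated tumours, 6.33, 4.67, 5.91 and 6.14 at 4 days, 5.81, 6.17, 5.71 and 5.79 at 60 days, and 1.60, 4.53, 5.05 and 5.79 in resistant tumours. All 60-day values were above all untreated ones, and the difference between the group means was 1.93 ± 0.86 (SE, limma's adjusted p = 0.256). Krtap6-1 had the largest 60-day difference of the family, 2.90 ± 1.27 (SE, 7.45-fold, adjusted p = 0.25). It measured 5.71, 0.76, 5.87 and 0.52 in untreated tumours, 5.92, 3.43, 5.76 and 6.86 at 4 days, 6.20, 6.13, 5.91 and 6.21 at 60 days, and 0.54, 3.87, 4.76 and 5.37 in resistant tumours.

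The high glycine-tyrosine gene Krtap19-1 and the genes Krtap31-1 and Krtap31-2, given no class here, had the most negative differences between resistant and untreated tumours, of -0.47, -0.53 and -0.60, each smaller than its standard error. Krtap19-1 had 0.15, 0.64, 2.54 and 1.17 in resistant tumours, against 2.88, 0.26, 3.08 and 0.18 in untreated tumours. Krtap31-1 had 0.20, 0.07, 2.07 and 1.47 in resistant tumours, against 2.60, 0.25, 2.92 and 0.14 in untreated tumours. Krtap31-2 had 0.28, 0.22, 2.39 and 1.58 in resistant tumours, against 3.47, 0.04, 3.28 and 0.08 in untreated tumours. Within both groups these values spread over more than the difference between the groups.

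**Figure D4:**
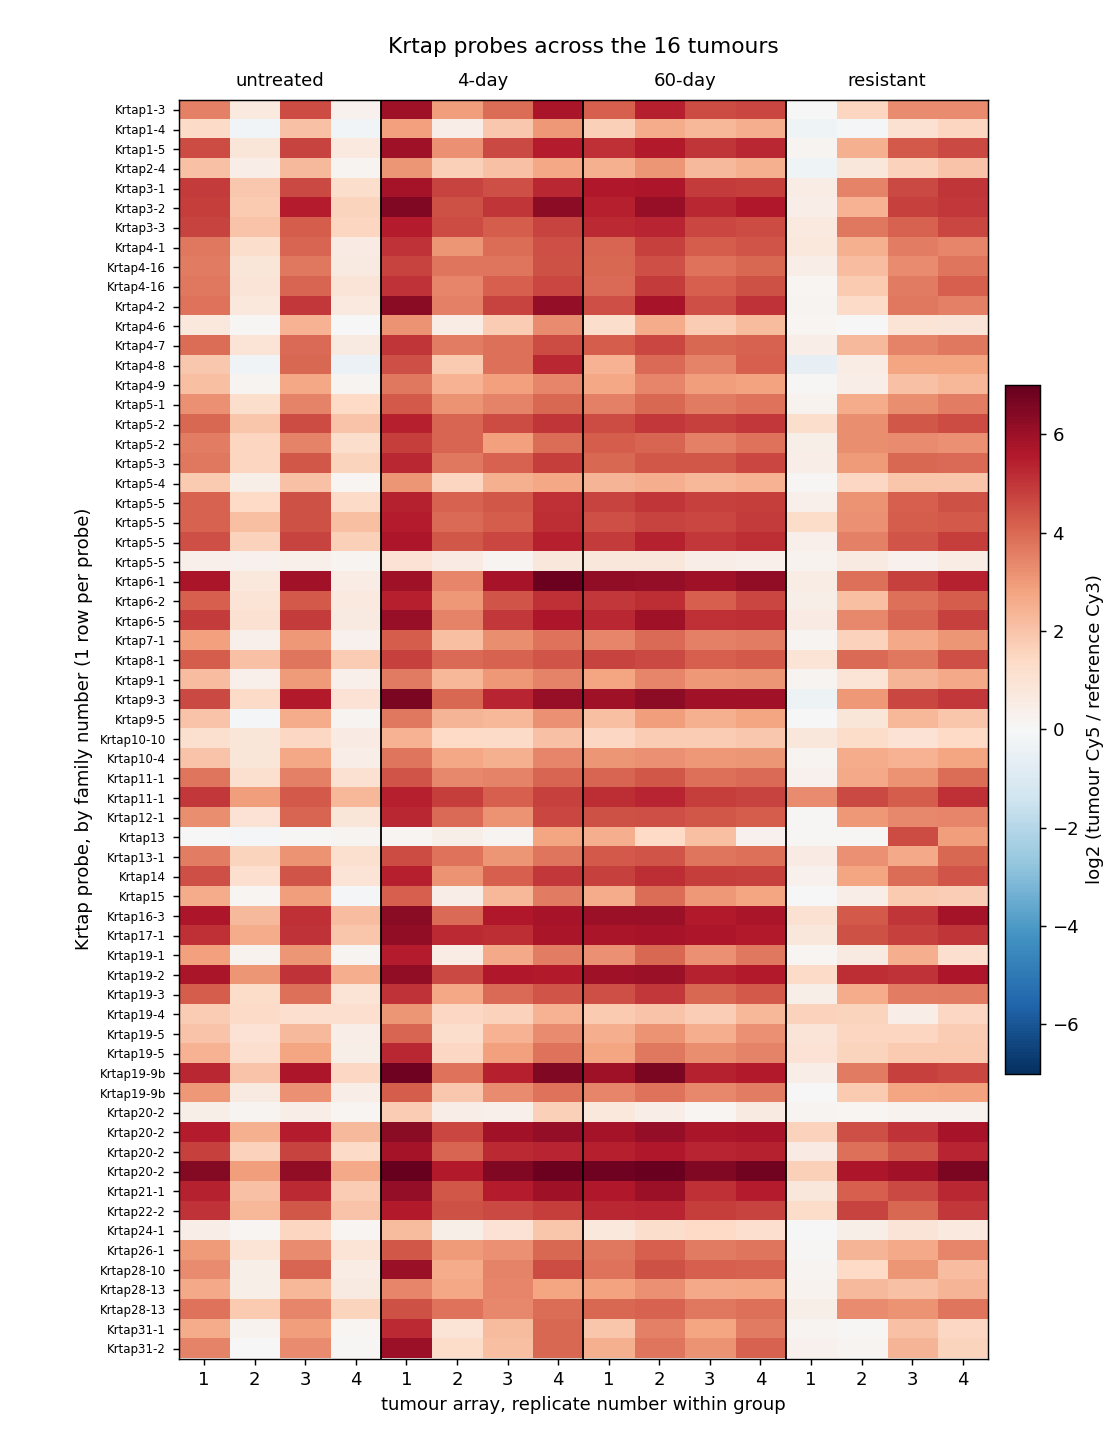
Log2 ratio of tumour Cy5 over reference Cy3 for the 64 Krtap probes (rows, by family number) in the 16 tumours (columns, by group). Most rows share 1 pattern, low in untreated tumours 2 and 4 and in resistant tumour 1, while Krtap13, Krtap19-4 and 1 probe each of Krtap5-5 and Krtap20-2 depart from it.

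The members moved together. Over the 16 arrays the median correlation between 2 Krtap probes was 0.925 (2016 pairs, from -0.25 to 0.998), and 51 of 64 probes correlated at over 0.9 with the mean of the others. Probes of a tumour share a library, so these are descriptions. In resistant tumours the class means were 0.33, 2.11, 3.22 and 3.35 for ultra-high sulfur probes, 0.39, 2.10, 3.03 and 3.32 for high sulfur probes, and 0.78, 2.98, 3.46 and 3.85 for high glycine-tyrosine probes. In untreated tumours they were 3.18, 1.00, 3.71 and 0.87 for ultra-high sulfur probes, 3.06, 1.01, 3.30 and 0.77 for high sulfur probes, and 4.04, 1.45, 3.97 and 1.15 for high glycine-tyrosine probes. In each of these classes resistant tumour 1 was the lowest of its group, and untreated tumours 2 and 4 were the low pair. The median difference from untreated tumours at 4 days and at 60 days was 1.77 and 1.68 for ultra-high sulfur, 1.51 and 1.71 for high sulfur, and 1.67 and 1.93 for high glycine-tyrosine probes. The classes were not tested against each other.

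A few probes departed from the common pattern. Krtap19-4 correlated with the mean of the others at 0.514, whereas Krtap19-5, whose probe differs from it at 8 of 60 positions, correlated at 0.894. The pair is printed to show how alike they are, with capitals at the positions that differ.
Krtap19-4 probe A_55_P2151209: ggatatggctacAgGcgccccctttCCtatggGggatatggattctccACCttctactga
Krtap19-5 probe A_55_P2065751: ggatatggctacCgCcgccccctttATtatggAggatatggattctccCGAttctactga
They lie at chr16:88885057-88885116 and chr16:88896479-88896538 (mm9, minus strand). Krtap19-4 measured 1.76, 1.31, 1.16 and 1.20 in untreated tumours, 3.09, 1.47, 1.63 and 2.41 at 4 days, 1.83, 2.01, 1.71 and 2.33 at 60 days, and 1.64, 1.58, 0.49 and 1.45 in resistant tumours. Krtap19-5 measured 2.02, 1.01, 2.25 and 0.45 in untreated tumours, 4.07, 1.26, 2.44 and 3.33 at 4 days, 2.53, 3.12, 2.55 and 3.19 at 60 days, and 0.88, 1.51, 1.48 and 1.75 in resistant tumours. Resistant tumour 1, the lowest of its group in most members, was the highest of its group in Krtap19-4 and the lowest of its group in Krtap19-5.

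Krtap13 departed furthest, with a correlation of 0.331. It was above background on 6 of 16 arrays and on none of the 4 untreated ones. It measured 0.04, -0.12, 0.06 and 0.20 in untreated tumours, 0.12, 0.42, 0.21 and 2.77 at 4 days, 2.53, 1.41, 2.12 and 0.28 at 60 days, and 0.09, 0.08, 4.55 and 2.91 in resistant tumours. Untreated tumours 1 and 3, high in nearly all other members, were as low as the rest of their group here. In Cy5 after loess and Aquantile, untreated tumours were set to no less than the lowest signal that was well above background. With that floor the mean Krtap13 signal was 2.44-fold higher at 60 days (3 of 4 tumours above background, limma's adjusted p of the ratio = 0.384). The floor was taken over all probes and is not this probe's own limit, so the fold is no strict lower bound. Krtap13 passed the filter through treated tumours alone. In resistant tumours Krtap13 was above background in 2 of 4 (limma's adjusted p = 0.538), and no fold is given. Krtap13-1, another member of the family, followed the common pattern with a correlation of 0.925.

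Probes of 1 gene did not always agree. Krtap20-2 had 4 probes, of which the 3 in the repeat shared 1 pattern, while A_55_P1966236, downstream of them, was above background on 5 arrays and none of the resistant ones. That probe measured 0.39, 0.18, 0.48 and 0.15 in untreated tumours, 1.80, 0.46, 0.36 and 1.68 at 4 days, 0.73, 0.46, 0.13 and 0.64 at 60 days, and 0.19, 0.11, 0.23 and 0.25 in resistant tumours. Between resistant and untreated tumours the Krtap20-2 probes ranged from -0.10 to 0.43, and the 2 probes of Krtap19-9b from -0.22 to 0.03. Of 4 Krtap5-5 probes, A_66_P101703 stayed between 0.17 and 1.02 on all arrays (correlation 0.631), where A_55_P2098150 ran from 0.36 to 5.66. In resistant tumour 1 the Krtap11-1 probe A_55_P2017347 stood at 3.32 and A_55_P2006812 at 0.33, while in resistant tumour 4 they stood at 5.12 and 3.90.

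Among genes not named Krtap, the 10 whose ratio followed the Krtap mean most closely over the 16 arrays were Krt87, Dnah6, Gm11563, Olfr1134, Gm19668, Gm11938, Gm11568, Gm11567, 1110025L11Rik and Icmt, with correlations between 0.986 and 0.993. Krt87 encodes a hair keratin. In the RefSeq gene order 6 of the 10 have a Krtap gene among the 5 genes on either side, namely Gm11563, Gm11567, Gm11568 and Gm11938 on chromosome 11, Gm19668 on chromosome 10 and 1110025L11Rik on chromosome 16. Members were chosen by name, and whether these 6 belong to the family was not examined. As an example Krt87 measured 3.82, 0.72, 3.89 and 0.92 in untreated tumours, 4.92, 3.01, 3.79 and 4.55 at 4 days, 4.24, 4.59, 4.13 and 4.43 at 60 days, and 0.19, 2.64, 3.57 and 3.94 in resistant tumours.

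Other genes of the hair follicle and skin were set beside the family as lists. Hair shaft keratins (15 of 16 genes measured) had a list mean that correlated with the Krtap mean at 0.977, and lay between 2.96 and 4.12 at 4 days, 3.53 and 3.92 at 60 days and 0.47 and 3.57 in resistant tumours, against 0.98 and 3.18 in untreated tumours. Of the 15, 0 passed limma's adjusted threshold in any comparison, against 1.31%, 1.05% and 0.0131% of all probes at 4 days, at 60 days and in resistant tumours. At an unadjusted p under 0.05 there were 7, 11 and 0, against 15.9%, 17.9% and 9.37% of all probes, and 15, 15 and 12 were above untreated tumours at 4 days, at 60 days and in resistant tumours. Inner root sheath and medulla genes (11 of 12, such as Krt71 and Krt27) correlated at 0.989 and hair matrix and cortex regulators (19 of 20, among them Hoxc13, Foxn1 and Lef1) at 0.96, again with 0 passing limma's adjusted threshold. At an unadjusted p under 0.05 the inner root sheath and medulla list had 8, 10 and 0 genes at 4 days, at 60 days and in resistant tumours, and the regulators 12, 11 and 1, against the same 15.9%, 17.9% and 9.37% of all probes. The companion layer and outer root sheath list correlated at 0.848, sebaceous gland at 0.741, interfollicular epidermis at 0.631 and adipocytes at 0.61. The lists of dermal papilla (-0.623) and fibroblasts (-0.645) ran the other way, and leukocytes (-0.388) and skeletal muscle (-0.0911) followed little.

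Skin markers followed the family in some tumours and not in others, and their part in the results was not tested. In resistant tumour 1 the means were 1.38 for interfollicular epidermis, 0.19 for sebaceous gland and 1.47 for outer root sheath, against at least 3.67, 2.57 and 3.31 in the other resistant tumours. The low untreated tumours 2 and 4 had epidermis means of 3.64 and 3.13, and the high ones 3.46 and 3.38, so the epidermis list did not separate the untreated pairs as Krtap did. Neither did the sebaceous gland list, with 1.46 and 1.18 in the low pair and 1.17 and 1.96 in the high pair. The companion layer and outer root sheath list had 2.86 and 2.42 in the low pair and 3.02 and 3.42 in the high pair. Of 17 sebaceous gland genes, 2 rose after 4 days, namely the lipid enzyme gene Scd1 (1.37, adjusted p = 0.0412) and Pparg (adjusted p = 0.0453), and 3 after 60 days, namely Scd1 (1.67, adjusted p = 0.0222), Acsbg1 (1.79, adjusted p = 0.0479) and Dgat2l6. Over all probes 1.31% and 1.05% passed in those comparisons. At limma's unadjusted p under 0.05 the sebaceous gland list had 9, 12 and 5 genes at 4 days, at 60 days and in resistant tumours. The shares of all probes were 15.9%, 17.9% and 9.37%. For Dgat2l6 the 60-day difference was 2.41 (adjusted p = 0.0294). Melanocyte pigment genes, which mark melanocytes and melanoma cells, had list means above 0 on all arrays, from 1.09 to 2.83, and correlated with the Krtap mean at 0.574. Mitf, a melanocyte transcription factor, rose after 4 days, by 0.88 (adjusted p = 0.0448), as 1 of 16 genes of its list. Of the 16, 15, 15 and 9 were above untreated tumours at 4 days, at 60 days and in resistant tumours. The median differences were 0.90, 0.90 and 0.06. At limma's unadjusted p under 0.05 there were 9, 9 and 0, against 15.9%, 17.9% and 9.37% of all probes. Prom1 rose after 60 days, by 0.99 (adjusted p = 0.0394), as 1 of 10 dermal papilla genes. In that list 6 of 10 differences were positive with a median of 0.11, and Fgf7 (-1.12), Wif1 (-0.995), Hhip (-0.21) and Sox18 (-0.11) were on the other side.

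**Figure D5:**
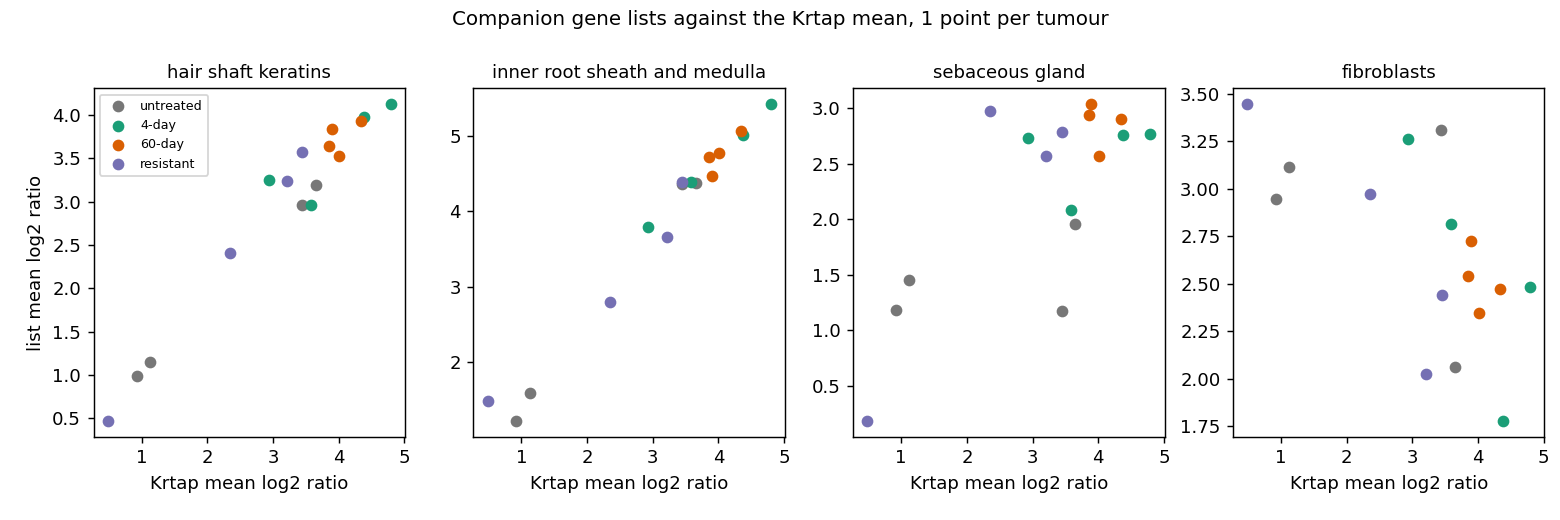
List mean log2 ratio of hair shaft keratins, inner root sheath and medulla genes, sebaceous gland genes and fibroblast genes against the Krtap mean log2 ratio, 1 point per tumour, coloured by group. The correlations are 0.977, 0.989, 0.741 and -0.645.

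Because the members moved together, their promoters were read from RefSeq (GRCm38.p6). Of 52 member genes, 46 had an entry, covering 250 bases before and 50 after the start. The letters TATAAA, on either strand, occurred within the 100 bases before the start in 37 of 46 (80.4%), against 5.56% of 32851 promoters of all genes. The HOXC13 consensus, on either strand, occurred within the whole 300 bases in 23 of 46 (50%), against 18.9% of all promoters, and within the 100 bases before the start in 5 of 46 (10.9%), against 6.6%. It can overlap TATAAA. HOXC13 is a homeobox factor of the hair matrix. A LEF1 form, CTTTGAA or CTTTGAT on either strand, occurred within the 300 bases in 12 of 46 (26.1%), against 8.65%, and within the 100 bases in 1 of 46 (2.17%), against 2.61%. For TATAAA the 300 bases gave 38 of 46 (82.6%), against 13.6%. The 100 bases before the start of Krtap4-2, Krtap9-3 and Krtap1-5, which had large differences, and of Krtap20-2 are printed with TATAAA in capitals.
Krtap4-2 promoter, chr11:99635085-99635184, minus strand: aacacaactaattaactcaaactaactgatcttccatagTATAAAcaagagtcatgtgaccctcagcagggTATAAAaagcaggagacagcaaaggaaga
Krtap9-3 promoter, chr11:99598107-99598206, minus strand: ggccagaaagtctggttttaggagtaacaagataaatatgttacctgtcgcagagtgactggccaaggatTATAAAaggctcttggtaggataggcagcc
Krtap1-5 promoter, chr11:99581017-99581116, minus strand: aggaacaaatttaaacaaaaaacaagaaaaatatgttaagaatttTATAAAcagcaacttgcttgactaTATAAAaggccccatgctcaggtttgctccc
Krtap20-2 promoter, chr16:89205761-89205860, plus strand: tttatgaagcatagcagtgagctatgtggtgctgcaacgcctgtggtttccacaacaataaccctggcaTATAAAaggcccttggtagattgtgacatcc
The box nearest the start began 29, 30, 31 and 31 bases before it in this order. Krtap19-4, 1 of the departing members, had no TATAAA in the 300 bases. Neither did Krtap19-1, Krtap19-2, Krtap19-3, Krtap3-3, Krtap5-3, Krtap14 or Krtap15, which correlated with the mean of the other members at 0.887 to 0.991. Krtap19-5 and Krtap13 had TATAAA. These are matches of letters, not binding sites.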

How the data were processed

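Tumour RNA (Cy5) and a universal mouse reference (Cy3) were hybridised on 16 arrays of 1 design, 4 a group. Per the file headers, the deposited intensities are mean spot and median background brightness read by Agilent Feature Extraction 10.7.3.1, and its processed intensities are background-subtracted and dye-normalized. Per the file headers, the deposited log10 ratio of Cy5 over Cy3 is made from those processed signals. The deposited value table of 45331 probes holds log2 ratios of Cy5 over Cy3, with a slope of 0.993 on the scanner's log2 ratios and column medians of -0.194 to -0.0638. How the authors normalized those log2 values is not stated by the labels or headers.

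Here intensities were background-corrected (normexp, offset 50) and loess-normalized within arrays, with control spots at weight 0 and outlier spots missing (0.143% of values). Spots of a probe were averaged. Probes above background in Cy5 on at least 4 of 16 arrays were kept. All 4 groups entered 1 limma 3.58.1 fit (R 4.3.3), with Benjamini-Hochberg adjustment over 30501 probes at 0.05. The fit was tested on simulated data with independent noise, where changes were planted only in probes of below-median spread. Power at the wider spread of most Krtap probes was not tested.

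RefSeq symbols were found for 61 of 64 Krtap probes. The members and lists were chosen with earlier results of these data known, and the grouping by family number was made after the files were seen. Named probes were the 4 genes of highest mean intensity, taken over 1 class since protein composition was not analysed here, the genes with the 3 largest and 3 lowest differences from untreated tumours, each read by its probe of highest mean intensity, genes whose probes differ in sign, the 10 most correlated other genes, and list genes past the threshold. Krtap5-5, the other Krtap20-2 probes, Krtap19-5 and Krtap13-1 were named after their values were seen. P-values set a group difference against the spread between samples within groups, pooled over all 4 groups. That spread was unequal, with SDs of the Krtap mean of 0.22 at 60 days and 1.46 in untreated tumours. With only the groups compared, 59 of 64 Krtap probes had limma's unadjusted p under 0.05 at 60 days, against 22.2% of all probes. Replicate numbers follow deposit order and pair nothing. Background correction, normalization, channel, filter, slide, title code, array weights and left-out samples were varied.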

Additional observations from a re-analysis of the deposited data

Results flagged for a closer look

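Of 144 groups of 4 examined, 7 held a value far from the other 3, by Dixon's ratio, and chance gives about 1 in 20. In 60-day tumour 1, 64 Krtap probes were above background, against 63 in each other 60-day tumour. Krtap10-4 stood at 0.17 in resistant tumour 1, with the other resistant tumours between 2.43 and 2.75. Krtap13 stood at 2.77 in 4-day tumour 4, with the others between 0.12 and 0.42. Krtap19-4 stood at 0.49 in resistant tumour 3, with the others between 1.45 and 1.64. The mean of the companion layer and outer root sheath list was 1.47 in resistant tumour 1, with the others between 3.31 and 3.56. The sebaceous gland list mean was 2.08 in 4-day tumour 3, with the others between 2.73 and 2.76, and 0.19 in resistant tumour 1, with the others between 2.57 and 2.97.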

How the results depend on the processing

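The count of 0 Krtap probes past limma's threshold held under the alternatives tried except those named here. With array weights 59 of 64 passed at 4 days and 57 at 60 days. With resistant tumour 1 and untreated tumour 3 both left out, chosen after seeing the data, 32 passed at 4 days, 50 at 60 days and 1 in resistant tumours. Leaving out 1 tumour gave 0 to 1 at 60 days, the 1 being without resistant tumour 1, and 0 in the other comparisons. Leaving out 1 tumour, the median Krtap difference from untreated tumours ranged from 1.23 to 2.12 at 4 days, from 1.30 to 2.18 at 60 days and from -0.34 to 0.79 in resistant tumours. It ranged from -2.10 to -0.96 for resistant against 60-day tumours and from -1.91 to -0.84 for resistant against 4-day tumours, the smallest being without resistant tumour 1. In the deposited value table the Krtap medians were 1.04, 0.98 and 0.12 against untreated tumours at 4 days, at 60 days and in resistant tumours, -0.74 for resistant against 60-day and -0.75 for resistant against 4-day tumours. No paired analysis was possible because the replicate numbers only name the samples.

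The sign turned for 8 named probes, in resistant minus untreated tumours alone, and the cause was not tested. In Cy5 alone, quantile-normalized, the differences were -0.14 for Krtap20-2, -0.066 for Krtap10-10 and -0.23 for Krtap4-8. In Cy5 after loess and Aquantile, added after seeing the data, they were -0.021, -0.055 and -0.22 for the same probes. With array weights Krtap19-4 had 0.017. In the deposited value table Krtap11-1 had -0.011 and Krtap31-2 0.77. With the processed signals Krtap31-2 had 0.40 and Krtap19-1 0.15. With both tumours left out Krtap31-2 had 0.20, Krtap31-1 0.21 and Krtap19-1 0.34. Leaving out 1 tumour, Krtap20-2 ranged from -0.25 to 1.19, Krtap19-4 from -0.19 to 0.20, Krtap10-10 from -0.0059 to 0.28, Krtap4-8 from -0.50 to 0.96 and Krtap19-1 from -0.95 to 0.018.

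Over all probes 401 passed at 4 days and 319 at 60 days. These became 14 and 11 with median centring, 171 and 119 with processed signals, 120 and 103 in the value table, 835 and 946 with slide as a block, 74 and 12 with title code as a random block, 30 and 1558 with only the groups compared, and 4589 and 5957 with array weights. Cy5 alone gave 702 at 4 days, or 480 at 60 days after Aquantile, and 1 probe a gene gave 180 at 60 days. Leaving out 1 tumour gave 76 to 866 and 35 to 1463. Resistant against untreated tumours gave 4, between 1 and 817 across the other settings apart from leaving out both tumours, and resistant against 4-day tumours 4, between 1 and 11. With both tumours left out the counts were 2492, 3474 and 1316 at 4 days, at 60 days and in resistant tumours. Dim probes such as Krtap13 and Krtap24-1 are limited by their signal over background.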
